A study of Mus musculus with 14 samples.

Results

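The secreted and membrane-bound protease inhibitors named Wfdc, Spink and Spint, with Slpi and Eppin, were described in the proximal mouse epididymis after the efferent ducts had been tied. The genes were taken by symbol from the array annotation, with 1 probe set per gene, which gave 37 genes of the 21929 measured. They comprised 20 genes with a WAP domain (18 Wfdc genes, Slpi and Eppin), 12 Spink genes and 5 Spint genes. Each had 1 probe set on the array.

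RNA came from 7 mice of 8 weeks of age, 4 controls (Ctl) and 3 with a conditional knockout of Arl13b in basal cells that express Krt5 (cKO). The product of Arl13b is a GTPase found in primary cilia. Krt5 is a keratin of basal cells, which sit beneath the principal cells of the duct. In each mouse the efferent ducts of one side were ligated (EDL), which cuts that epididymis off from testicular fluid and sperm, while the opposite epididymis was sham-operated. Tissue collected 48 h afterwards gave 4 sham and 4 EDL samples from Ctl mice and 3 of each from cKO mice, each on a Clariom S Mouse array. The Cre line, the Arl13b allele and the genotype of the Ctl mice beyond that name are not given in the sources used here. Arl13b itself differed between cKO and Ctl by 0.10 ± 0.14 log2 units in sham tissue and -0.13 ± 0.14 in EDL tissue (SE, adjusted p = 0.999 and 0.9), in RNA of whole tissue that holds many cells besides basal cells.

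All values are log2 intensities, so that a difference of 1 is a doubling. Array medians lay between 6.96 and 7.06. The tissue carried transcripts of proximal principal cells, with Rnase10 at a mean of 13.27 and Lcn8 at 13.57 in Ctl sham arrays, and the basal cell keratin Krt5 at 10.06. Genes of olfactory and vomeronasal receptors served as a background level, with a 95th percentile of 5.31. The 4 seminal vesicle genes Svs2, Svs4, Svs5 and Svs6 had group means between 3.56 and 5.64, the highest of them above that level. They belong to a list of 6 genes of the seminal vesicle and distal tract, whose other genes are not given singly. The mean log2 level of that list per array ran from 5.199 (Ctl sham) to 5.704 (Ctl EDL). One Ctl EDL array, replicate 4, stood apart from its group for several of the genes described here, as set out with the Spint genes. In whole tissue, fewer cells of a type and less RNA per cell cannot be told apart.

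These inhibitors hold small domains locked by disulfide bonds that block the active site of serine proteases. WAP domains define the Wfdc proteins, Slpi and, together with a Kunitz domain, Eppin. Kazal domains define the Spink proteins, and Kunitz domains the Spint proteins. Many are made by epididymal principal cells and secreted onto maturing sperm, where they limit proteolysis and bacterial growth, and Eppin coats the sperm surface. Most WAP genes and 3 of the Spint genes lie side by side on chromosome 2. That cluster held 19 of the 37 genes, with 13 other protein-coding genes in its span in the RefSeq annotation. Another 3 WAP genes (Wfdc17, Wfdc18 and Wfdc21) were direct neighbours on chromosome 11, and 9 of the 12 Spink genes lay on chromosome 18.

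Most of these genes gave a strong signal in the proximal epididymis, and a minority none above background. The mean over all arrays was above the background level for 29 genes and at or below it for 8. The 8 were Wfdc5, Wfdc12, Wfdc15a, Wfdc21, Spink1, Spink6, Spink7 and Spink14. In Ctl sham tissue 11 genes had a mean above 12, where the highest value of any probe set on any array was 13.91. Probe sets differ in affinity, so these intensities do not rank the genes by transcript number.

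The 6 genes with the highest Ctl sham intensities were Spink8, Wfdc10, Spink12, Spink11, Wfdc13 and Spink5. In Ctl sham replicates 2 to 5, the order used for Ctl values throughout, Spink8 read 13.18, 13.21, 13.10 and 12.92. Wfdc10 read 13.07, 12.99, 13.12 and 13.06. For cKO the order is replicates 2 to 4. Spink12 read 12.77, 12.67, 12.64 and 12.68, and Spink11 read 12.75, 12.72, 12.58 and 12.67. Spink5, whose product restrains kallikreins in the skin, read 12.50, 12.58, 12.50 and 12.46, and Wfdc13 read 12.47, 12.55, 12.70 and 12.56. Except for Wfdc13, whose cKO sham arrays spread from 11.99 to 12.67, these genes varied little within any group, with standard deviations of at most 0.13.

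**Figure D1:**
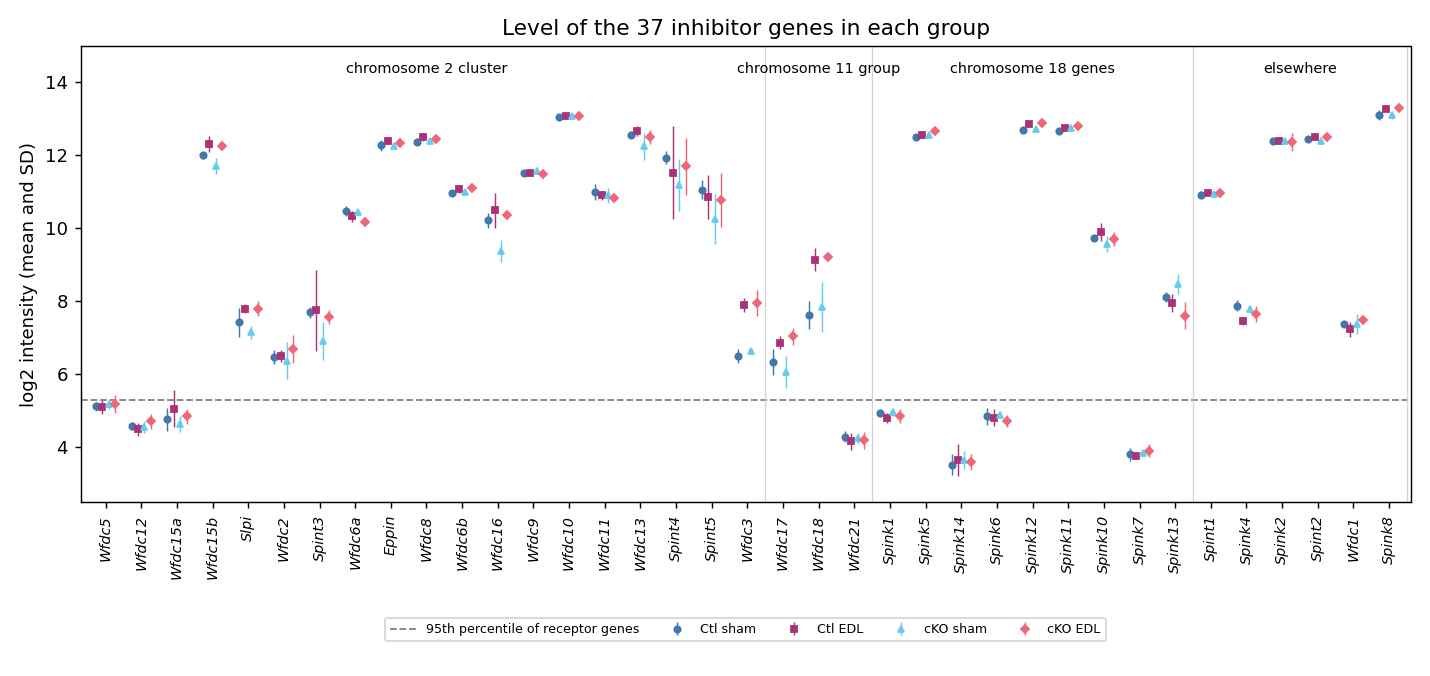
Mean log2 intensity and SD of each of the 37 genes (horizontal axis, in chromosomal order within each locus) in the sham and EDL arrays of Ctl (n = 4 and 4) and cKO mice (n = 3 and 3). The dashed line is the background level of 5.31, and 8 genes lie at or below it.

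The first question was how the inhibitors responded to ligation. In Ctl mice 3 of the 37 genes (8.11%) passed an adjusted p of 0.05, against 7.88% of all genes tested. Wfdc3 and Wfdc18 were higher, where 3.32% of all genes were, and Spink4 was lower, where 4.57% were. In cKO mice 7 genes (18.9%) passed, against 9.79% of all genes. Wfdc3, Wfdc18, Wfdc17, Wfdc16, Wfdc15b and Slpi were higher, against 5.04% of all genes, and Spink13 was lower, against 4.74%. Sham and EDL arrays did not overlap for 6 of the 37 genes in Ctl (16.2%, against 14.1% of all genes) and for 15 in cKO (40.5%, against 25.8%). The median change of the 37 genes was 0.06 in Ctl and 0.11 in cKO, and that of all genes 0.01 in both. At an unadjusted p under 0.05 there were 8 genes in Ctl (21.6%, against 20.3% of all genes) and 10 in cKO (27.0%, against 22.4%). Markers of several cell types moved with ligation too. Of 8 genes of initial segment principal cells 5 fell in each genotype, with a median change of -3.28 in Ctl and -3.10 in cKO. Of 11 sperm and spermatid genes 9 fell in Ctl and 7 in cKO (median -1.81 and -1.37). Of 6 basal cell genes 2 rose in Ctl and 4 in cKO (median 0.25 and 0.65). Macrophage, neutrophil and fibroblast markers are given below with single genes. The lists of caput principal cells and clear cells had medians near 0. Of 9 caput principal cell genes 1 rose and 3 fell in each genotype (median 0.03 in Ctl and -0.08 in cKO). Of 6 clear cell genes 1 rose and 1 fell in Ctl, and 0 rose and 1 fell in cKO (median 0.06 and -0.07). The part of these cell types in the changes of the inhibitor genes was not tested. The cKO count rested on few mice. Leaving out cKO sham replicate 2 left 3 genes and leaving out cKO EDL replicate 2 left 4. Without mouse 2 or mouse 4 of the cKO group 1 gene was left, Wfdc3.

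Wfdc3, a WAP gene at the end of the chromosome 2 cluster, rose in both genotypes. It read 6.31, 6.59, 6.73 and 6.37 in Ctl sham and 7.68, 7.98, 7.84 and 8.12 in Ctl EDL arrays. In cKO it read 6.65, 6.72 and 6.56 after sham and 8.37, 7.74 and 7.78 after EDL. Every EDL array lay above every sham array, in both genotypes. The rise was 2.65-fold in Ctl (log2 change 1.40 ± 0.14, SE, 95% interval 1.10 to 1.71, n = 4 and 4, adjusted p = 1.34e-05). In cKO it was 2.51-fold (1.32 ± 0.16, n = 3 and 3, adjusted p = 0.000114). It passed under every alternative tried, with changes without 1 array from 1.33 to 1.48 in Ctl and from 1.12 to 1.44 in cKO.

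Wfdc18, also known as Expi, encodes a WAP protein known from mammary tissue, and lies between Wfdc17 and Wfdc21. It read 8.05, 7.58, 7.76 and 7.11 in Ctl sham and 9.07, 8.96, 8.94 and 9.60 in Ctl EDL arrays. In cKO it read 8.08, 8.37 and 7.08 after sham and 9.28, 9.11 and 9.29 after EDL. The groups did not overlap, and the sham arrays were the more scattered, with replicate 4 lowest in cKO and replicate 5 lowest in Ctl. The rise was 2.86-fold in Ctl (1.51 ± 0.25, 95% interval 0.98 to 2.05, adjusted p = 0.00147) and 2.61-fold in cKO (1.39 ± 0.29, adjusted p = 0.00755). It was higher after EDL in 4 of 4 Ctl and 3 of 3 cKO mice. In cKO the call was lost without mouse 2 or mouse 4 (1.48 and 0.97, adjusted p = 0.0515 and 0.0641), each of which leaves 2 cKO mice.

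The promoters of Wfdc3, Wfdc18 and Wfdc17 are shown because these are the WAP genes with the largest rises over both genotypes, Wfdc17 past the threshold in cKO only. Of the 37 genes, 22 had a promoter sequence in the RefSeq table used (GRCm38.p6). Each sequence gives the 250 bases before the annotated start, 5′ to 3′ on the gene's own strand. Capitals mark matches on either strand to a TATA box (TATAAA) or to the AGGAAG core bound by PEA3-type ETS factors such as Etv5. Wfdc3 is on the minus strand at chr2:164743268-164743517, Wfdc17 on the plus strand at chr11:83703806-83704055 and Wfdc18 on the plus strand at chr11:83708754-83709003.
Wfdc3: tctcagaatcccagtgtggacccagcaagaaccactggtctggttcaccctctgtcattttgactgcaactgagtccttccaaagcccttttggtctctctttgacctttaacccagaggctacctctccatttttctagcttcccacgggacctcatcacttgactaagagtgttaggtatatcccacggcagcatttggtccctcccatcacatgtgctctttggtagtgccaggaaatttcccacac
Wfdc17: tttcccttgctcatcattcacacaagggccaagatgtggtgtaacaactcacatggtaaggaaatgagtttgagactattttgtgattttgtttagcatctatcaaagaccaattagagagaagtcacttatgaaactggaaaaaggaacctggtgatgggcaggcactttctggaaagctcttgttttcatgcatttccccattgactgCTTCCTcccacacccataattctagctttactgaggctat
Wfdc18: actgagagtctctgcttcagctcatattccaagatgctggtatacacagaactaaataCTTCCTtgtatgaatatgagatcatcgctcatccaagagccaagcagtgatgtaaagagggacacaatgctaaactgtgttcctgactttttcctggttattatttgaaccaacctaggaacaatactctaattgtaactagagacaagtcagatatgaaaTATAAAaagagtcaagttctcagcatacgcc

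The neighbours Wfdc17 and Wfdc18 resembled each other in this region. The best local alignment of their windows, which ran on to 50 bases past the start, matched 143 of 226 aligned positions (63.3%). The best alignments of Wfdc3 with either covered 15 positions. Wfdc18 had a TATA box match 31 bases before its start, and both Wfdc17 and Wfdc18 had an AGGAAG match on the opposite strand, starting 40 and 192 bases before the start. The AGGAAG match of Wfdc18 lay outside the aligned stretch, so these matches were not at corresponding positions. TATAAA occurred in 12.4% and AGGAAG in 29.5% of all 32851 promoters listed. Of the 22 inhibitor genes with a promoter 3 held the first and 7 the second. AP-1 sites (TGANTCA) and the core of androgen receptor sites (AGAACA), also searched on both strands, had no match in these 3 windows and matched 6.75% and 16.1% of all promoters.

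Wfdc17 and Slpi are inhibitors that macrophages and epithelia produce under inflammatory stimuli, and Slpi blocks neutrophil elastase. Wfdc17 read 6.42, 6.74, 6.35 and 5.86 in Ctl sham, 6.68, 7.10, 6.84 and 6.86 in Ctl EDL, 5.62, 6.48 and 6.10 in cKO sham and 6.82, 7.28 and 7.02 in cKO EDL arrays. The groups overlapped in Ctl, where 1 EDL array lay below the highest sham array, but not in cKO. The change was 0.97 ± 0.22 in cKO (1.96-fold, adjusted p = 0.0129) and 0.53 ± 0.19 in Ctl (adjusted p = 0.123). With mouse as a fixed replicate block the Ctl change also passed (0.53, adjusted p = 0.0369). The cKO call was lost without cKO sham replicate 2 (0.75, adjusted p = 0.0701).

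Slpi read 8.001, 7.05, 7.28 and 7.38 in Ctl sham and 7.97, 7.70, 7.84 and 7.71 in Ctl EDL arrays. In cKO it read 6.97, 7.34 and 7.14 after sham and 7.62, 8.02 and 7.75 after EDL. Ctl sham replicate 2 lay above every Ctl EDL array, and the cKO groups did not overlap. The change was 0.65 ± 0.19 in cKO (1.57-fold, adjusted p = 0.0453) and 0.38 ± 0.16 in Ctl (adjusted p = 0.211). The cKO call lay at the threshold and was lost in 19 of 31 alternatives. The Ctl change passed without Ctl sham replicate 2 (0.57, adjusted p = 0.0141).

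Markers of macrophages and monocytes rose after EDL. Of the 12 markers 10 rose in Ctl and 12 in cKO. Their mean log2 level was 7.32 to 8.05 in Ctl sham and 8.50 to 9.14 in Ctl EDL arrays, and 6.96 to 7.94 in cKO sham and 8.82 to 8.97 in cKO EDL arrays. Of the 10 neutrophil markers 2 rose in Ctl, S100a8 by 1.44 ± 0.40 and Cxcr2 by 0.63 ± 0.15, and 0 passed in cKO. The median change of that list was 0.70 in Ctl and 0.42 in cKO, and its mean log2 level was 5.33 to 5.67 in Ctl sham and 5.63 to 6.23 in Ctl EDL arrays, against 5.34 to 5.87 and 5.93 to 6.08 in cKO. The part of these cells in the changes of Wfdc17 and Slpi was not tested.

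**Figure D2:**
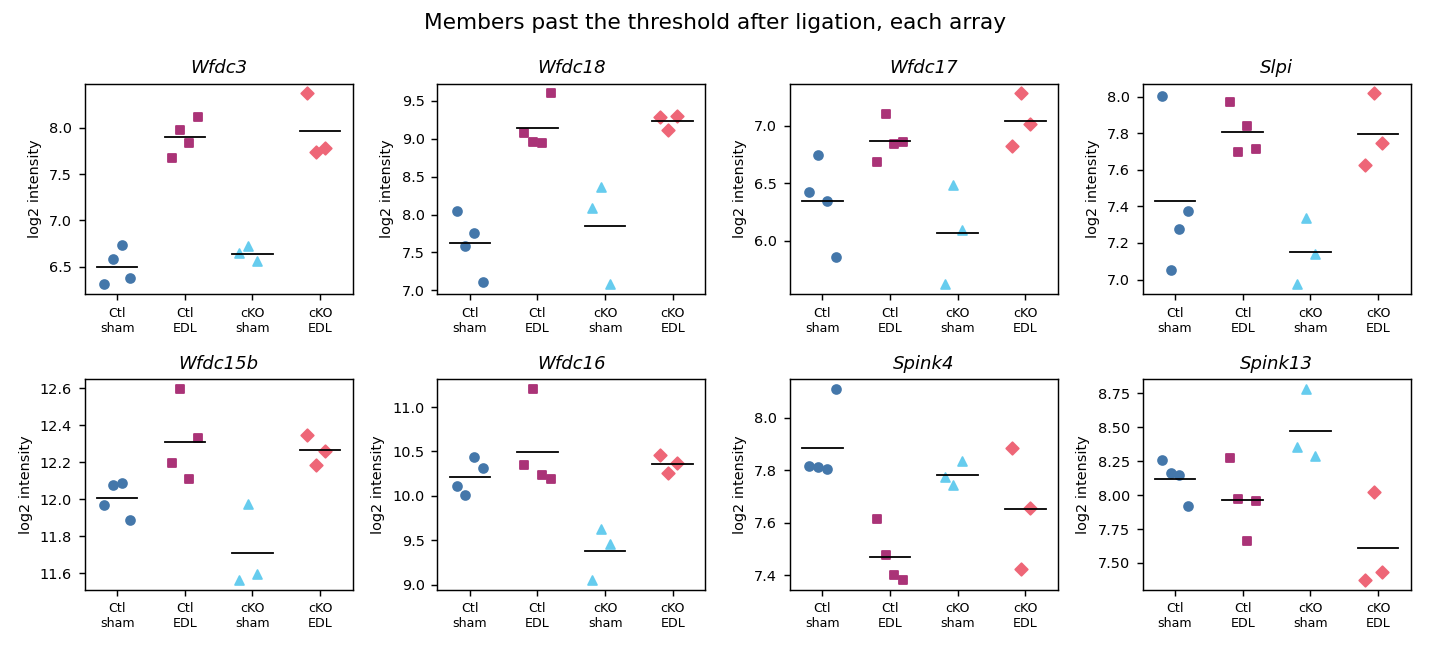
Log2 intensity of the 8 genes past the threshold for EDL against sham in either genotype, 1 point per array and a bar at the group mean (n = 4, 4, 3 and 3). For Wfdc3 and Wfdc18 every EDL array lies above every sham array, and for Wfdc16 the 3 cKO sham arrays lie lowest.

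Wfdc15b, a WAP protein with antibacterial activity that was first named SWAM1, and Wfdc16, of the same cluster, rose in cKO. Wfdc15b read 11.97, 12.08, 12.09 and 11.89 in Ctl sham, 12.20, 12.60, 12.11 and 12.33 in Ctl EDL, 11.56, 11.98 and 11.60 in cKO sham and 12.35, 12.19 and 12.26 in cKO EDL arrays. Sham and EDL did not overlap in either genotype. The change was 0.55 ± 0.13 in cKO (1.47-fold, adjusted p = 0.0154) and 0.30 ± 0.11 in Ctl (adjusted p = 0.13). The cKO call was lost without cKO sham replicate 2 or 4 or cKO EDL replicate 2 (0.48 to 0.51, adjusted p up to 0.0804).

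Wfdc16 read 10.11, 10.01, 10.44 and 10.31 in Ctl sham, 10.34, 11.20, 10.24 and 10.19 in Ctl EDL, 9.05, 9.63 and 9.45 in cKO sham and 10.46, 10.26 and 10.36 in cKO EDL arrays. The cKO sham arrays were the lowest of all, and the cKO EDL arrays lay among the Ctl arrays. The change after EDL was 0.99 ± 0.23 in cKO (1.98-fold, adjusted p = 0.0129) and 0.28 ± 0.20 in Ctl (adjusted p = 0.483). The cKO call was lost without cKO sham replicate 2 (0.82, adjusted p = 0.0722) or cKO EDL replicate 2 (0.94, adjusted p = 0.0513). Without Ctl EDL replicate 3, the Ctl change was 0.04.

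In the second deposited table of log2 values, whose scale is wider, the changes of the genes past the threshold had the same directions and passed too. Wfdc3 and Wfdc18 changed there by 2.46 and 2.47 in Ctl and by 2.10 and 2.37 in cKO. The cKO changes of Wfdc17, Wfdc16, Wfdc15b and Slpi were 1.49, 1.77, 0.92 and 1.13.

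The other WAP genes did not pass in either genotype. Eppin, which binds semenogelin on human sperm, read 12.32, 12.06, 12.42 and 12.33 in Ctl sham and 12.47, 12.46, 12.28 and 12.42 in Ctl EDL arrays, and these groups overlapped. In cKO it read 12.29, 12.21 and 12.26 after sham and 12.30, 12.38 and 12.34 after EDL, without overlap. Its change was 0.13 ± 0.08 in Ctl (95% interval -0.04 to 0.30) and 0.08 ± 0.09 in cKO (-0.11 to 0.28). The 95% intervals of its cluster neighbours Wfdc6b, Wfdc8, Wfdc9 and Wfdc10 lay between -0.26 and 0.28 in both genotypes. Wfdc6a changed by -0.14 ± 0.09 in Ctl and -0.27 ± 0.10 in cKO (adjusted p = 0.397 and 0.105), with no overlap between the cKO groups. Wfdc2, known as HE4 from the human epididymis, changed by 0.03 ± 0.19 and 0.31 ± 0.22. The changes of Wfdc1, Wfdc11 and Wfdc13 were -0.15, -0.09 and 0.10 in Ctl and 0.11, -0.07 and 0.26 in cKO, and Wfdc13 passed in cKO only without cKO sham replicate 3 (0.47, adjusted p = 0.0321). In the RefSeq annotation Wfdc8 overlaps Wfdc6b and Wfdc9 overlaps Wfdc10.

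Among the Kazal inhibitors 1 gene fell in each genotype and none rose. Spink4, known from goblet cells of the gut, read 7.82, 7.81, 7.80 and 8.11 in Ctl sham and 7.62, 7.48, 7.40 and 7.38 in Ctl EDL arrays. In cKO it read 7.77, 7.74 and 7.84 after sham and 7.88, 7.42 and 7.66 after EDL. The groups did not overlap in Ctl and overlapped in cKO. The change was -0.42 ± 0.10 in Ctl (1.34-fold lower, 95% interval -0.64 to -0.20, adjusted p = 0.0199) and -0.13 ± 0.12 in cKO (adjusted p = 0.585). The Ctl call was lost without Ctl sham replicate 5 (-0.34, adjusted p = 0.0696), Ctl EDL replicate 4 (-0.40, 0.0542) or Ctl EDL replicate 5 (-0.39, 0.063). It was also lost without 3 of the 4 Ctl mice, mouse 3 (-0.44, adjusted p = 0.0635), mouse 4 (-0.42, 0.0773) and mouse 5 (-0.31, 0.166).

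Spink13, which in the rat is an epididymal protein that binds sperm, fell in cKO. It read 8.26, 8.16, 8.15 and 7.92 in Ctl sham, 8.27, 7.97, 7.66 and 7.96 in Ctl EDL, 8.35, 8.78 and 8.29 in cKO sham and 7.37, 8.03 and 7.44 in cKO EDL arrays. The cKO sham arrays were the highest of all, and 2 cKO EDL arrays the lowest. The change was -0.86 ± 0.19 in cKO (1.82-fold lower, 95% interval -1.26 to -0.46, adjusted p = 0.00923). In Ctl it was -0.16 ± 0.16 (-0.50 to 0.19, adjusted p = 0.655), with 2 of 4 mice lower. The cKO call was lost without mouse 2 or mouse 4 (-0.80 and -0.87, adjusted p = 0.0848 and 0.0516). The annotated span of Spink10 overlaps Spink7 and Spink13, and Spink10 changed by 0.17 ± 0.12 in Ctl and 0.13 ± 0.14 in cKO.

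Spink12 and Spink8 were examined after their values were seen, as Kazal genes with no overlap in either genotype and no adjusted p under 0.05. After EDL Spink12 read 12.87, 12.83, 12.85 and 12.87 in Ctl and 12.95, 12.83 and 12.91 in cKO arrays, all above the sham arrays of their genotype. Its changes were 0.17 ± 0.06 and 0.19 ± 0.07 (adjusted p = 0.13 and 0.123). With a trended and robust prior variance both passed (adjusted p = 0.0179 and 0.0185), as did the cKO change with a second quantile normalization (0.26, 0.0369). Spink8 changed by 0.18 ± 0.08 and 0.20 ± 0.09 (adjusted p = 0.193 in both), with no overlap in either genotype. Spink5, Spink11 and Spink2, the last known as an inhibitor of the sperm protease acrosin, had 95% intervals between -0.28 and 0.27 in both genotypes.

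**Figure D3:**
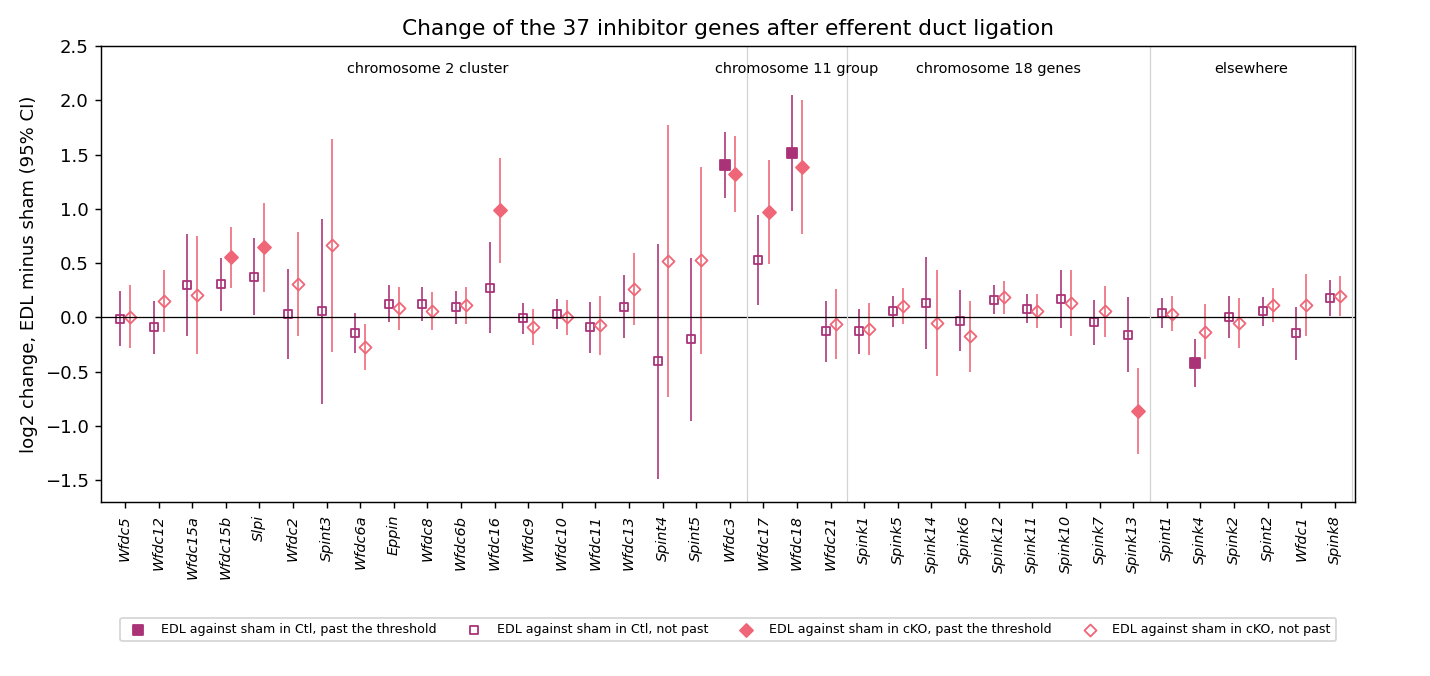
Log2 change of each of the 37 genes, EDL minus sham, in Ctl (squares, n = 4 and 4) and cKO (diamonds, n = 3 and 3), with 95% confidence intervals. Filled symbols passed an adjusted p of 0.05 (3 genes in Ctl and 7 in cKO), and most others lie near 0.

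The Kunitz genes fell into 2 patterns. Spint1 and Spint2 encode membrane-bound inhibitors of matriptase, hepsin and the activator of hepatocyte growth factor. Spint1 changed after EDL by 0.04 ± 0.07 in Ctl and 0.04 ± 0.08 in cKO, and Spint2 by 0.06 ± 0.06 and 0.11 ± 0.07, with 95% intervals between -0.13 and 0.27. Spint3, Spint4 and Spint5, which lie in the chromosome 2 cluster, were far more scattered.

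Spint4 read 12.17, 11.80, 11.95 and 11.81 in Ctl sham, 12.50, 11.87, 9.66 and 12.09 in Ctl EDL, 11.41, 11.75 and 10.38 in cKO sham and 11.32, 12.59 and 11.18 in cKO EDL arrays. Spint5 read 11.27, 10.88, 11.29 and 10.81 in Ctl sham, 11.35, 11.03, 9.97 and 11.10 in Ctl EDL, 10.43, 10.83 and 9.50 in cKO sham and 10.27, 11.64 and 10.45 in cKO EDL arrays. For both genes replicate 4 was lowest among the Ctl EDL and the cKO sham arrays, and replicate 3 highest in both cKO groups. Spint3 read 7.65, 7.52, 7.85 and 7.78 in Ctl sham, 7.81, 8.98, 6.28 and 7.95 in Ctl EDL, 6.33, 7.33 and 7.06 in cKO sham and 7.50, 7.78 and 7.44 in cKO EDL arrays. It too was lowest among the Ctl EDL arrays on replicate 4.

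None of these 3 genes passed in any comparison. After EDL the Ctl changes were 0.06 ± 0.40, -0.40 ± 0.51 and -0.20 ± 0.35 for Spint3, Spint4 and Spint5. Without Ctl EDL replicate 4 they were 0.55, 0.22 and 0.10, so that Spint4 and Spint5 changed sign. Spint3 changed sign without Ctl EDL replicate 3 (-0.35), and was near 0 when Ctl EDL replicate 5 or Ctl sham replicate 3 was left out. In cKO they were 0.66 ± 0.46, 0.52 ± 0.58 and 0.53 ± 0.40. Those of Spint4 and Spint5 were 0.12 and 0.15 without cKO sham replicate 4, and 0.08 and 0.10 without cKO EDL replicate 3. That of Spint3 was 0.38 without cKO sham replicate 2.

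The low values of Ctl EDL replicate 4 were shared by other transcripts. Pate3, Cwh43, Defb38, Defb26 and Ly6f were taken as a comparison from earlier results of these data, where they were low in cKO sham tissue. All 5 had their lowest Ctl EDL value on replicate 4, as had Spint3, Spint4 and Spint5. Pate3 read 5.53 there and 9.74 to 10.61 in the other Ctl EDL arrays, and Defb38 read 6.94 there and 10.44 to 11.33 in the others. In cKO sham arrays Pate3 read 5.80, 5.49 and 5.64 and Defb38 read 6.48, 7.45 and 6.29, below every Ctl sham array. The other arrays ordered these genes alike in part. Among the cKO sham arrays Cwh43, Defb38, Defb26 and Ly6f were highest on replicate 3, as were the 3 Spint genes, whereas Pate3 was lowest there. In Ctl EDL the 5 genes and Spint3 were highest on replicate 3, and Spint4 and Spint5 on replicate 2. The 5 genes rose after EDL in cKO by 2.10 to 3.27 (adjusted p up to 0.0453), and no Spint gene passed. Because the 5 were chosen for low cKO sham values, their place below Ctl sham and this rise were favoured by the choice. They give no test against the Spint genes.

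**Figure D4:**
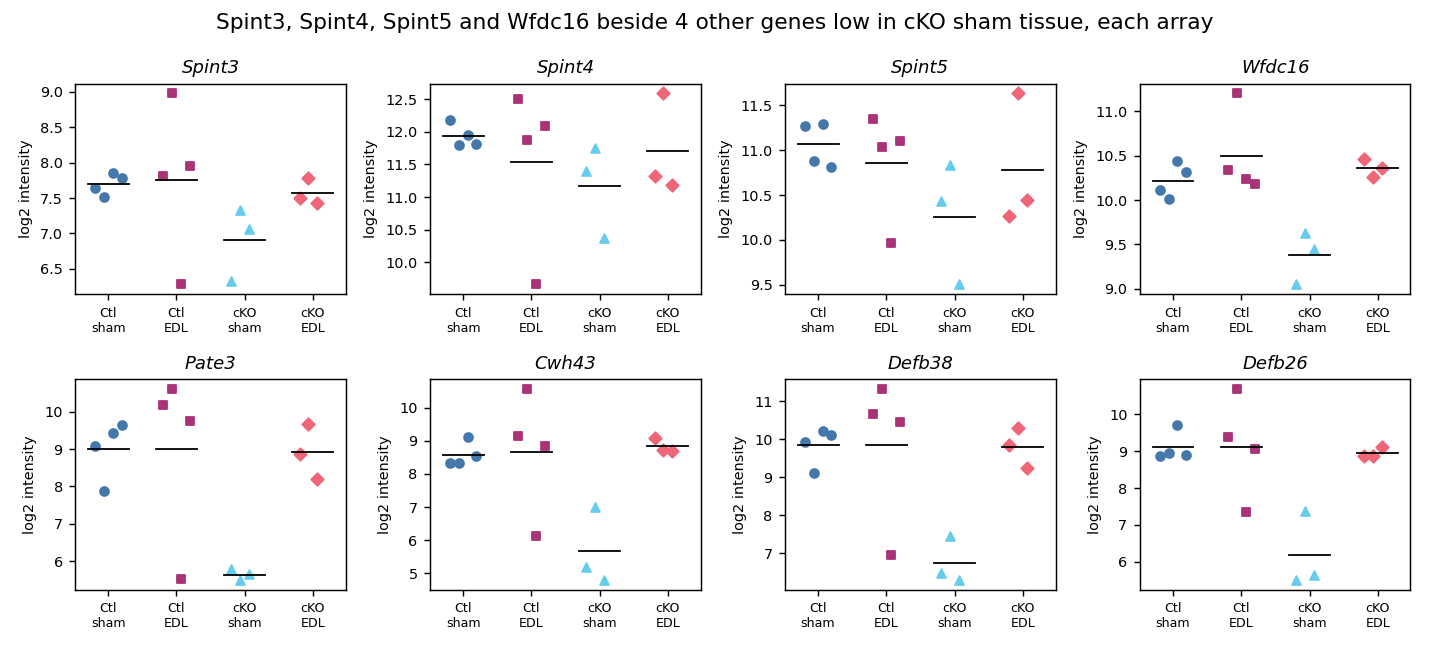
Log2 intensity of Spint3, Spint4, Spint5 and Wfdc16 (top row) and of Pate3, Cwh43, Defb38 and Defb26 (bottom row), 1 point per array and a bar at the group mean (n = 4, 4, 3 and 3). The single low Ctl EDL array of the 3 Spint genes and of the bottom row is replicate 4, and the cKO sham arrays lie below the Ctl sham arrays for every gene shown except Spint5. The genes of the bottom row were chosen as low in cKO sham tissue.

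The second question was whether the genotypes differed. By limma, 0 of the 37 genes passed in sham tissue, in EDL tissue or for the interaction, where 0% of all genes passed. At an unadjusted p under 0.05 there were 4, 0 and 2 of the 37 genes (10.8%, 0% and 5.41%), against 3.65%, 6.08% and 4.10% of all genes. The 4 genes of the sham comparison were all in the chromosome 2 cluster and lower in cKO. Wfdc16 differed by -0.84 ± 0.21 (95% interval -1.29 to -0.39, unadjusted p = 0.00131, adjusted p = 0.999). The authors' deposited unadjusted p-values for the same comparison, from the same arrays, were 0.00584 for Wfdc16 and 0.045 for Wfdc15b. Those for Wfdc13 and Spint5 were 0.069 and 0.0974. Spint5, Wfdc13 and Wfdc15b differed by -0.81 ± 0.38, -0.33 ± 0.15 and -0.29 ± 0.12. Without cKO sham replicate 4 the differences of Spint5 and Wfdc13 were -0.43 and -0.20, and without cKO sham replicate 3 that of Wfdc13 was -0.54. In the second deposited table Wfdc16, Spint5, Wfdc13 and Wfdc15b differed by -1.52, -1.36, -0.56 and -0.48, and none passed. In EDL tissue the differences of these 4 genes were -0.13, -0.08, -0.16 and -0.04, in the same order.

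Groups of sham tissue did not overlap for 4 genes (10.8%), against 4.9% of all genes. Wfdc16, Spint3 and Spint4 were lower in cKO, and Spink13 was higher (0.35 ± 0.17, adjusted p = 0.999). Without cKO sham replicate 3 the difference of Spink13 was 0.20. Those of Spint3 and Spint4 were -0.79 ± 0.43 and -0.76 ± 0.55, and moved to -0.50 without cKO sham replicate 2 and to -0.36 without cKO sham replicate 4, respectively. In EDL tissue Wfdc6a alone did not overlap (-0.17 ± 0.09, adjusted p = 0.828), where 5.75% of all genes did not.

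For the interaction, the difference between the genotypes' changes after EDL, the 2 genes with an unadjusted p under 0.05 for the interaction were Spink13 (-0.70 ± 0.25, 95% interval -1.23 to -0.18, adjusted p = 0.985) and Wfdc16 (0.71 ± 0.30, 0.07 to 1.35, adjusted p = 0.985). For Wfdc3 and Wfdc18 the differences between the genotypes' changes were -0.08 ± 0.22 and -0.13 ± 0.38, with intervals from -0.54 to 0.38 and from -0.95 to 0.69. For Wfdc17, Wfdc15b, Slpi and Spink4, each past the threshold in 1 genotype, they were 0.44 ± 0.29, 0.25 ± 0.17, 0.27 ± 0.25 and 0.29 ± 0.16.

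The last comparison set the inhibitors beside the proteases they can meet. Of 29 trypsin-like serine proteases 3 rose and 2 fell in Ctl, and 5 rose and 2 fell in cKO, with a median change of 0.01 and 0.05. Hgfac, the activator of hepatocyte growth factor, fell by 1.47 ± 0.12 in Ctl and 1.49 ± 0.14 in cKO (adjusted p = 1.27e-06 and 5.46e-06). St14, which encodes matriptase, fell by 0.32 ± 0.07 and 0.33 ± 0.08 (adjusted p = 0.00713 and 0.0138). Both are targets of Spint1 and Spint2, whose own changes did not pass. Prss8, the partner of matriptase known as prostasin, rose by 0.34 ± 0.09 and 0.34 ± 0.10 (adjusted p = 0.0256 and 0.0431), and Hpn, which encodes hepsin, changed by 0.12 ± 0.14 and 0.28 ± 0.16. The plasminogen activator gene Plat rose by 0.85 ± 0.16 and 0.88 ± 0.19 (adjusted p = 0.00488 and 0.00968).

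**Figure D5:**
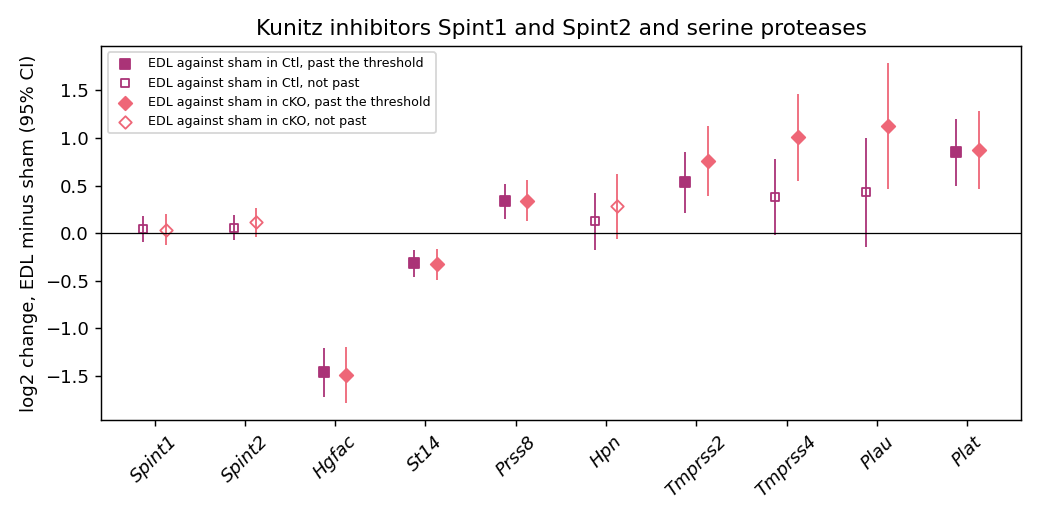
Log2 change, EDL minus sham, with 95% confidence intervals for the inhibitors Spint1 and Spint2 and for 8 serine protease genes, in Ctl (squares, n = 4 and 4) and cKO (diamonds, n = 3 and 3). Filled symbols passed an adjusted p of 0.05. Hgfac and St14 fell in both genotypes, and Spint1 and Spint2 lie near 0.

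Of 25 other genes with WAP, Kunitz or Kazal domains 1 rose in Ctl and 3 in cKO, and none fell in either. Tfpi2, a Kunitz inhibitor of plasmin, rose by 0.43 ± 0.13 in Ctl (adjusted p = 0.0496). The matrix genes Col6a3, Sparc and Igfbp7 rose in cKO by 1.22 ± 0.29, 0.73 ± 0.17 and 0.45 ± 0.10. Beside these, 4 of 8 fibroblast and smooth muscle markers rose in cKO and 0 in Ctl, with median changes of 1.23 and 0.34. The part of these cells in the 3 matrix genes was not tested.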

How the data were processed

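RNA of the proximal epididymis (100 ng labelled per sample) was measured on 14 Clariom S Mouse arrays. The authors deposited log2 values of 22206 probe sets, and RMA, Partek 7.0 and Affymetrix Expression Console appear as tools, with no role or order, per the submitters' processing notes. A second log2 table, deposited as the series matrix with no normalization stated, was an alternative. The authors deposited p-values of 4 comparisons in a further table, which also gave the gene symbols; its 14 array columns were not used, since their identifiers differed from those of the line in 5826 of 22207 lines. Symbols were updated by RefSeq accession (20452 probe sets matched), and keeping each gene's probe set of highest mean left 21929 genes. The build of the array annotation was not given in the sources used, so coordinates are printed for RefSeq promoters only.

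A limma model with 1 mean per group gave all contrasts. The threshold was an adjusted p of 0.05 (Benjamini and Hochberg's method across the 21929 genes, two-sided). Errors are moderated standard errors. No low values were filtered out; the number of arrays limits the precision, with 95% intervals for a typical inhibitor gene of 0.24 log2 to either side in Ctl and 0.28 in cKO. Each array of a group is a different mouse, numbered in the labels. The background level is the 95th percentile of the means of 1459 olfactory and vomeronasal receptor genes. The inhibitor genes, lists and tests were chosen with earlier results of these data known. Arrays were described in full for genes past the threshold in any contrast and for the 6 highest in Ctl sham; Eppin, Spink12 and Spink8 after EDL, and Spint3, Spint4 and Spint5 were added after their values were seen. Genes outside the set were named as up to 3 per list and contrast by smallest p; Rnase10, Lcn8, Krt5, Prss8, Hpn, the Svs genes, the other proteases plotted and the 5 genes low in cKO sham tissue were further ones, chosen with values known. The deposited file lists 1 scan date for all arrays.

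Both sides of each mouse were used, so same-numbered arrays of a genotype were taken as 1 mouse, a pairing the labels do not spell out. Deviations from the group means correlated by -0.002 to 0.198 within the 7 pairs, and 4 of the 7 sham arrays correlated best with the EDL array of their number. Mouse entered as a block among the alternatives. The model was tested on simulated data. Versions were Python 3.11.15, limma 3.58.1 and R 4.3.3.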

Additional observations from a re-analysis of the deposited data

Results flagged for a closer look

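In the 74 groups of 4 arrays (37 genes in Ctl sham and Ctl EDL) 5 values lay far from the others of their group, measured by the gap to the nearest array over the whole range of the group; chance alone flags about 1 in 20 groups. Ctl EDL replicate 3 was highest for Wfdc12 (4.76 against 4.42 for the next array, gap 0.9265 of the range), Wfdc6a (10.54 against 10.29, 0.8332) and Wfdc16 (11.20 against 10.34, 0.8459). Ctl sham replicate 4 was lowest for Wfdc6b (10.93 against 10.99, 0.8507). Ctl sham replicate 5 was highest for Spink4 (8.11 against 7.82, 0.963), and without it the Ctl change of Spink4 did not pass.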

How the results depend on the processing

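Across 31 alternatives the 10 changes past the threshold kept their direction, and they stayed past it in 269 of 310 cases. Many of these cases could not move the change itself, only its p. A cKO change is the same when a Ctl array or mouse is left out, and the reverse. The probe set of lowest mean was also the same one, as each gene had 1. The number of inhibitor genes past the threshold was 2 to 4 in Ctl when 1 array was left out and 3 to 8 in cKO. Without 1 mouse it was 2 to 4 in Ctl and 1 to 7 in cKO, with 1 gene without cKO mouse 2 or cKO mouse 4. Under the other alternatives it was 3 to 4 in Ctl and 6 to 9 in cKO, and the comparisons of genotypes and the interaction stayed at 0 throughout. With mouse as a fixed replicate block 4 genes passed in Ctl, which added Wfdc17, and the block changed no other call among the genes named. The median change in cKO was 0.04 with arrays centred on their medians and 0.22 in the second table. Of 75 changes that did not pass, those of 17 genes described array by array (all but Eppin), 99 of 2274 recomputed values changed sign, none of them larger than 0.40 at first. Many of these values likewise could not move. The 8 genes at or below background carry no usable change.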
